A study of Gallus gallus with 6 samples.

Results

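The base of the feather follicle was compared between its resting and its active state. The comparison used the 2 resting libraries, taken after 10 weeks of feather regeneration, and the 2 early growth libraries, taken after 3 weeks, which are 4 of the 6 bulk RNA-seq libraries considered here. The remaining 2 libraries came from the late growth phase at 7 weeks. They entered only the filter on mean TPM and the estimate of the spread, and their values are given where they place a result. All libraries came from papilla ectoderm of untreated White leghorn chicken, peeled off the dermal papilla of contour feathers in a saline free of calcium and magnesium with EDTA. The labels name the cells epidermal progenitors, and the keratinocyte genes KRT5, KRT14 and TP63 were abundant in every library. Several dermal genes were abundant as well in the resting and early growth libraries, as described below. A single batch year, 2018, is given to all libraries. The methods speak of the RNA of each individual, but the labels do not say whether the 2 libraries of a phase came from separate birds, so the p values may measure only a technical spread between these libraries. Levels are TPM values, transcript abundances with each library scaled to the same total. Of 23724 genes, 13063 averaged above 1 TPM over the 6 libraries and were tested.

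Feathers are shed and regrown in cycles. At the bottom of each follicle, the papilla ectoderm is an epidermal sheet that wraps the dermal papilla, a knot of mesenchyme fed by blood vessels. The study places the proliferating progenitors of the growing feather in the collar, a part of the follicle epidermis. It describes epidermal stem cells as moving down to the papilla ectoderm on entry into rest. In the resting phase the filament has been completed and division at the base stops, while follicle muscles, nerves and dermis remain around the papilla. The peeled sheet is therefore never far from dermal cells, and the levels of their marker genes are reported below beside those of the epidermis. In bulk tissue, fewer cells of a type and less RNA per cell cannot be told apart.

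Gene expression differed widely between the phases. In resting libraries 2063 genes were higher than in early growth (15.8% of those tested) and 4437 were lower (34.0%) at an adjusted p under 0.05 in limma, and 6563 were not called. The called genes included 3917 differentially expressed genes (DEGs) that changed by more than 1 on the log2 scale, of which 1433 were higher (11.0% of tested genes) and 2484 lower (19.0%) in resting. All fold changes are resting minus early growth on log2(TPM + 1), a scale that understates changes of low genes. The 6500 called genes had no overlap between the phases, as did 9702 of all tested genes.

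TPM is a share of each library, and the balance between higher and lower genes moved with the scaling. Over all tested genes the median log2 fold change was −0.27 with TPM as deposited, 0.04 after median-of-ratios scaling, −0.04 after quantile normalization and −0.11 after rescaling without red blood cell and smooth muscle genes. Higher genes made up 31.7% of the calls with TPM as deposited, against 52.0%, 47.1% and 40.7% under those 3 scalings. The median of a gene list is to be read against −0.27, and the counts of its members against 15.8% higher and 34.0% lower over all tested genes. Libraries of 1 phase correlated at 0.968 in resting and 0.942 in early growth, and libraries of different phases at 0.758 to 0.797. Early growth replicate 2 listed 814 tested genes at 0, against 124 in replicate 1, and resting libraries listed 405 and 433, so early growth carried the wider spread for weakly expressed genes.

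**Figure D1:**
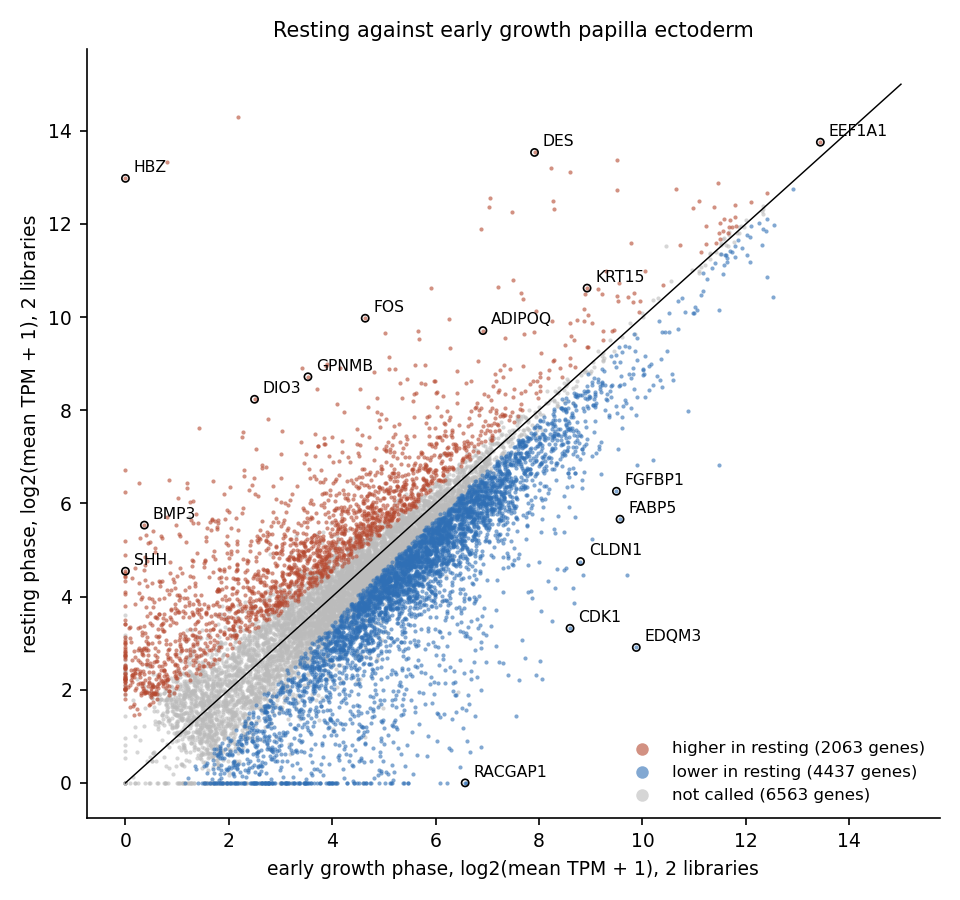
Mean level of each of the 13063 tested genes in the resting phase (vertical axis) against the early growth phase (horizontal axis), both as log2(mean TPM + 1) over 2 libraries, with the diagonal marking equal levels. Red points are the 2063 genes higher in resting and blue points the 4437 lower; the cell division gene CDK1 and the differentiation gene EDQM3 lie far below the diagonal, and the muscle gene DES and the globin gene HBZ far above it.

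Among genes with no resting or early growth library at 0, the 10 largest rises included several muscle genes, a globin and the immediate early gene FOS, and cell division genes made up most of the 10 largest falls. Genes with a library at 0, several globins among them, are described separately. FHL1, a muscle LIM-domain protein, had 478 and 485 TPM in the resting libraries, against 17.5 and 1.84 TPM in the early growth libraries. DES, the intermediate filament of muscle, had 11701 and 12028 TPM in the resting libraries, against 292 and 188 TPM in the early growth libraries. DIO3, the deiodinase that inactivates thyroid hormone, had 297 and 304 TPM in the resting libraries, against 3.43 and 5.86 TPM in the early growth libraries, a log2 fold change of 5.77 ± 0.28 (SE, adjusted p 4.7e-05). The Popeye-domain genes BVES (179.7 and 159.6 TPM in resting, against 6.45 and 1.11 TPM in early growth) and POPDC2 (194 and 177 TPM in resting, against 4.66 and 2.95 TPM in early growth), both known from muscle, and the transcription factor IRX4 (74.5 and 84.5 TPM in resting, against 1.99 and 0.583 TPM in early growth) also stood among these 10 rises. In late growth DES was nearly absent, with 0.319 and 0 TPM. EEF1A2, the elongation factor isoform of muscle and neurons, had 101 and 108 TPM in resting and was listed at 0 in both early growth libraries. Summed markers of smooth muscle (6.32 and 6.51% of TPM in resting, against 0.509 and 0.422% in early growth) and of red blood cells (5.58 and 5.61%, against 0.144 and 0.161%) moved in the same direction as these rises, and their part in them was not tested.

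Among the 10 largest falls of genes with no library at 0 in these phases, 9 were genes of cell division, DNA precursor synthesis or nuclear transport. The exception was EDQM3, which lies in the epidermal differentiation complex, with 9.99 and 3.02 TPM in the resting libraries, against 907 and 977 TPM in the early growth libraries (log2 fold change −7.15 ± 0.43). KPNA2, an importin that carries cargo into the nucleus, had 5.08 and 5.23 TPM in the resting libraries, against 260.0 and 258 TPM in the early growth libraries. SMC2, a condensin subunit that compacts chromosomes, had 2.72 and 4.6 TPM in the resting libraries, against 275 and 256 TPM in the early growth libraries. ENDOU and WFDC2L were listed at 0 in both resting libraries, with 83.7 and 106 TPM and 56.9 and 76.2 TPM in early growth. In all, 245 tested genes were at 0 in both resting libraries and 97 in both early growth libraries.

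**Figure D2:**
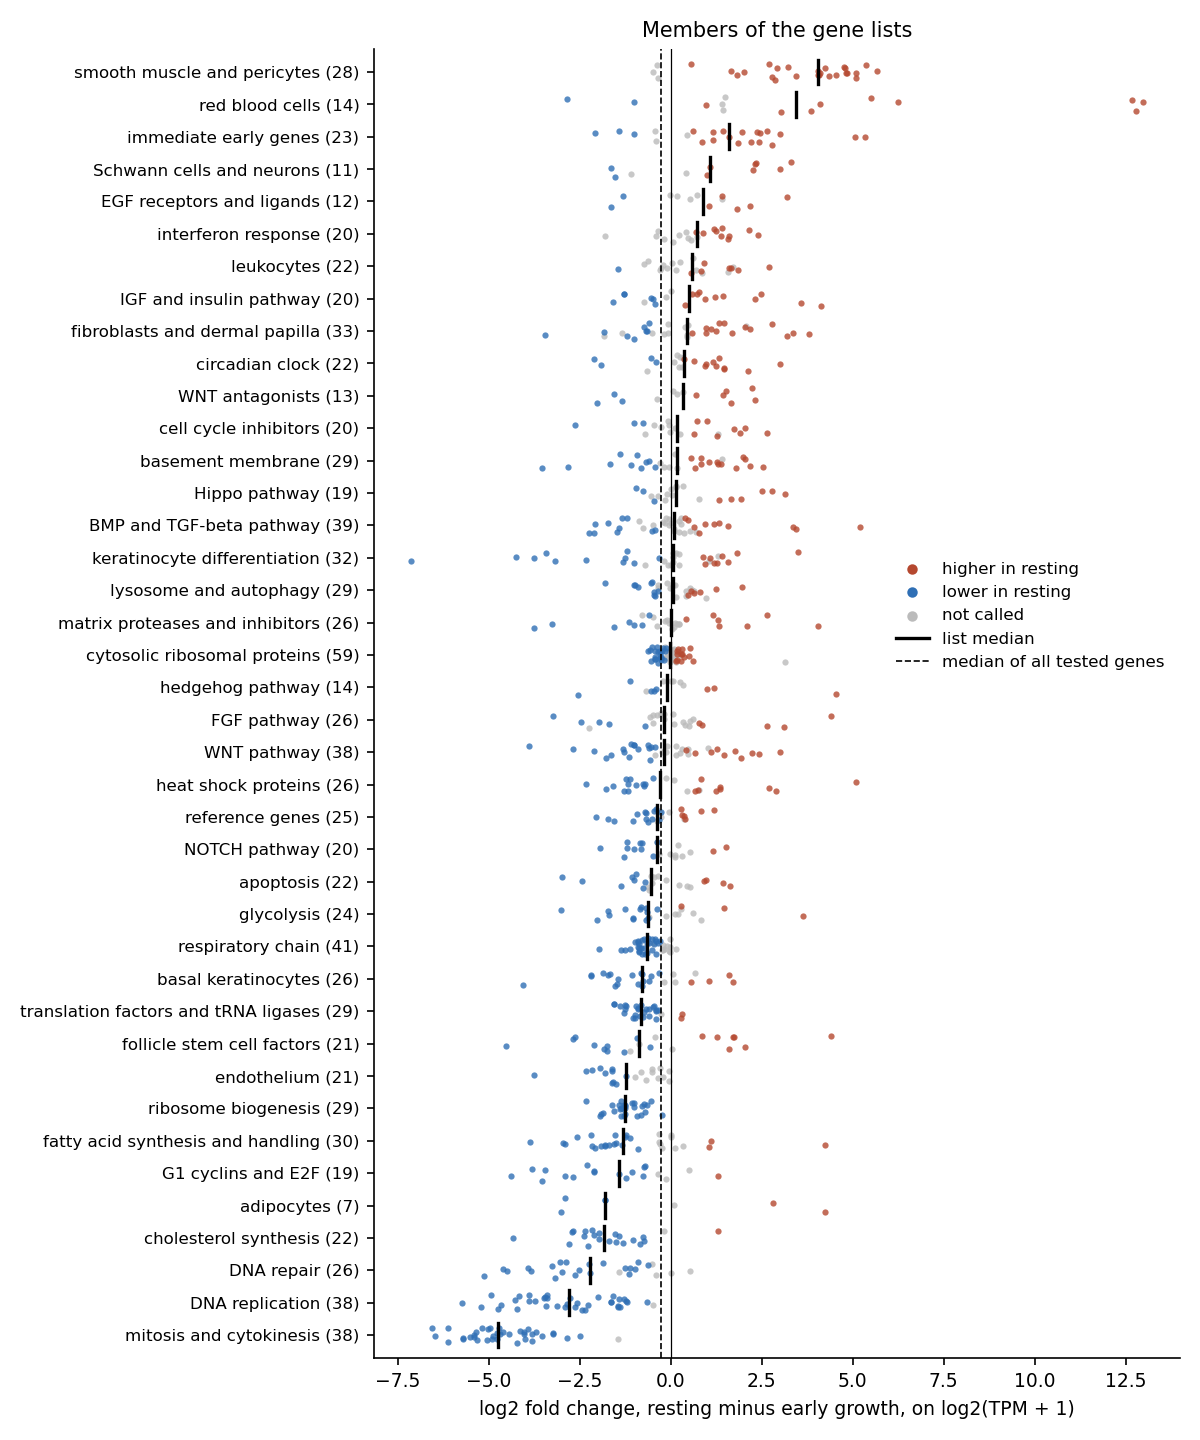
Log2 fold change, resting minus early growth, of every tested member of the gene lists with at least 7 tested genes (number in brackets), with the list median as a black bar and the median of all tested genes, −0.27, as a dashed line. Mitosis and cytokinesis had the lowest list median (−4.74) and smooth muscle and pericytes the highest (4.05), while several signalling lists held red and blue points in similar numbers.

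The cell division program was almost silent at rest. Of 38 tested genes of mitosis and cytokinesis, 37 fell and none rose, with a median of −4.74. CDK1, the kinase that starts mitosis, had 6.83 and 11.1 TPM in the resting libraries, against 388 and 386 TPM in the early growth libraries, a log2 fold change of −5.31 ± 0.20 (adjusted p 2.5e-05). PLK1, the mitotic kinase of the spindle poles, had 0.815 and 0.595 TPM in the resting libraries, against 127 and 107 TPM in the early growth libraries. MKI67, the proliferation marker, had 1.02 and 1.49 TPM in the resting libraries, against 87.1 and 95.1 TPM in the early growth libraries. AURKA, BUB1B, KIF4A and UBE2C, of spindle assembly, checkpoint, chromosome movement and cyclin destruction, fell by between 5.41 and 5.72 on the log2 scale. RACGAP1, needed for cytokinesis, was listed at 0 in both resting libraries and had 89.3 and 98.8 TPM in early growth. Only SGO1, which protects centromeric cohesion, was not called, with 2.42 and 7.24 TPM in the resting libraries, against 22 and 8.25 TPM in the early growth libraries. The summed level of the list was 0.0147 and 0.0149% of TPM in the resting libraries, against 0.396 and 0.392% in the early growth libraries. The summed basal keratinocyte markers were 1.23 and 1.23% at rest and 1.76 and 1.90% in early growth. Of 26 tested markers in that list 18 were lower at rest and 4 higher, the abundant KRT15 and COL17A1 among the higher. The part of cell numbers in the fall of the division genes was not tested.

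DNA replication and repair followed the same direction. Of 38 tested replication genes 37 fell (median −2.80), and of 26 repair genes 21 fell and none rose (median −2.23). RRM2, a subunit of the enzyme that makes deoxynucleotides, had 5.66 and 2.25 TPM in the resting libraries, against 253 and 238 TPM in the early growth libraries. TK1, the S-phase thymidine kinase, had 2.41 and 8.51 TPM in the resting libraries, against 191 and 234 TPM in the early growth libraries. The origin licensing factor CDC6 had 0.326 and 0 TPM at rest and 27.2 and 32.5 TPM in early growth, and CDC45, part of the replicative helicase, had 0 and 0.340 TPM at rest and 45.4 and 26 TPM in early growth. All 4 were below 10 TPM in both resting libraries. PCNA, the sliding clamp used in both replication and repair, was still at 129.8 and 128.7 TPM in the resting libraries, against 549 and 485 TPM in the early growth libraries. Genes of the Fanconi and BRCA group were among the largest falls of the repair list. FANCD2 had 0.0743 and 0 TPM at rest and 38.4 and 32.1 TPM in early growth, and BRCA1, of recombination repair, had 0.531 and 0.845 TPM at rest and 46.8 and 28.8 TPM in early growth.

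Among 19 regulators of the G1 phase, 15 fell and 1 rose (median −1.43). CDK2, the kinase of the G1/S transition, had 20.3 and 18.2 TPM in the resting libraries, against 256 and 319 TPM in the early growth libraries, a log2 fold change of −3.83 ± 0.13. The proliferation factor FOXM1 had 2.52 and 2.48 TPM at rest and 54.7 and 25.8 TPM in early growth, and CCNE2, 1 of the E cyclins, had 0.529 and 0.427 TPM at rest and 16.4 and 16 TPM in early growth. CCNE1, the other E cyclin, was not called, with 26.7 and 32 TPM at rest and 32.1 and 32 TPM in early growth, so the E cyclins did not move as a pair. E2F2 was listed at 0 at rest and had 16.1 and 24.5 TPM in early growth. The MYC paralogs were split: MYC had 59.2 and 47.9 TPM in the resting libraries, against 158 and 133 TPM in the early growth libraries, and MYCN was the only gene of the list that rose, with 8.73 and 16.2 TPM in the resting libraries, against 5.26 and 3.39 TPM in the early growth libraries. The rise of MYCN was not called without early growth replicate 2, without resting replicate 2 or in a fit of the 4 libraries alone.

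Genes that restrain the cell cycle did not share 1 direction. Of 20 tested, 8 rose, 3 fell and 9 were not called (median 0.17). BTG2, an antiproliferative gene induced by p53 and by stress, had 383 and 405 TPM in the resting libraries, against 64.1 and 61.4 TPM in the early growth libraries, a log2 fold change of 2.63 ± 0.08 (adjusted p 1.6e-05). The stress-response genes GADD45B (140.1 and 144 TPM in resting, against 35.3 and 32.4 TPM in early growth) and GADD45A (152 and 122 TPM in resting, against 32.3 and 38.9 TPM in early growth) and the antiproliferative TOB1 (80.1 and 86.2 TPM in resting, against 24.9 and 23.8 TPM in early growth) were higher at rest. CDKN1B, which encodes the inhibitor p27 that holds cyclin E and CDK2 in check, had 129.3 and 103 TPM in the resting libraries, against 49.9 and 44.9 TPM in the early growth libraries. CDKN1C, encoding p57, was not called, with 96.5 and 92.4 TPM at rest and 93.2 and 103 TPM in early growth. On the other side, the retinoblastoma family genes RBL1 (9.21 and 5.41 TPM in resting, against 55.3 and 43.7 TPM in early growth) and RB1 (21 and 19.1 TPM in resting, against 40.5 and 41.7 TPM in early growth) were lower at rest. Of 22 apoptosis genes 4 rose and 8 fell, close to the 15.8% higher and 34.0% lower over all tested genes. The survival genes BCL2 (30.9 and 27.8 TPM in resting, against 7.23 and 10.9 TPM in early growth) and MCL1 (150.1 and 144 TPM in resting, against 67.9 and 80.7 TPM in early growth) were higher. The death receptor gene TNFRSF10B (7.78 and 7.82 TPM in resting, against 59.9 and 78.1 TPM in early growth), the death-promoting BID (27.8 and 28.2 TPM in resting, against 159.7 and 154 TPM in early growth) and the initiator caspase CASP8 (34.2 and 30.6 TPM in resting, against 83.6 and 85.4 TPM in early growth) were lower. The death-promoting BOK was higher, with 143 and 126 TPM in resting, against 72.4 and 70.9 TPM in early growth, so directions did not divide by function.

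Transcripts of ribosome assembly genes and of ribosomal protein genes did not move together in these libraries. All 29 tested genes of ribosome biogenesis, which process ribosomal RNA in the nucleolus, fell (median −1.26). Of these, 25 were called lower after median-of-ratios scaling and 27 after quantile normalization. NOP56, of the snoRNA-guided methylation complex, had 72.6 and 67.7 TPM in the resting libraries, against 341 and 368 TPM in the early growth libraries. RRP9, a component of the U3 processing complex, had 50.3 and 43.3 TPM in the resting libraries, against 162 and 198 TPM in the early growth libraries. The ribosomal proteins themselves were spread narrowly around 0, with 13 of 59 higher, 22 lower and 24 not called (median −0.03, with log2 fold changes of the called genes between −0.62 and 0.62). They took 20.6 and 20.2% of all TPM at rest and 20.1 and 21.6% in early growth. RPL37A had 5339.5 and 5566 TPM at rest and 3387 and 3698 TPM in early growth, and RPL8 had 3777 and 3591 TPM at rest and 5185 and 5499.9 TPM in early growth, a fall that was not called after median-of-ratios scaling. The direction of the group followed the scaling: 22 higher and none lower after median-of-ratios scaling, 5 higher and 36 lower after quantile normalization, and 25 higher and 8 lower after rescaling. Without resting replicate 1 or 2, 11 or 10 were lower, and without either of them or without early growth replicate 1, 7 or 8 were higher. RPL14, at 3006 and 2897 TPM at rest and 39.8 and 2768 TPM in early growth, had 1 early growth library far below the other 3 libraries and was not called. Of 29 translation factors and tRNA ligases 26 fell (median −0.83), among them the ligases GARS (48.8 and 52.6 TPM in resting, against 149 and 156 TPM in early growth) and MARS (59.4 and 62 TPM in resting, against 192 and 170.2 TPM in early growth). In this list 18 were called lower after median-of-ratios scaling (median −0.49) and 22 after quantile normalization (median −0.57). The elongation factor EEF1A1 was higher at rest, with 13793 and 13847 TPM in the resting libraries, against 11054 and 11180.0 TPM in the early growth libraries, but turned lower after quantile normalization, with a log2 fold change of −0.58.

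Lipid synthesis was one of the clearest metabolic differences. Of 22 tested genes of cholesterol synthesis and uptake 20 fell, with a median of −1.83. SQLE, the squalene epoxidase, had 8.68 and 8.36 TPM in the resting libraries, against 69.5 and 61.6 TPM in the early growth libraries, a log2 fold change of −2.80 ± 0.13 (adjusted p 4e-05). FDPS, which makes farnesyl diphosphate, had 32.5 and 25.4 TPM in the resting libraries, against 189 and 201 TPM in the early growth libraries. SREBF2, the transcription factor of this pathway, had 52.8 and 58.3 TPM at rest and 227 and 217 TPM in early growth. The only riser was the cholesterol exporter ABCA1, with 16.4 and 15.5 TPM in the resting libraries, against 6.69 and 5.25 TPM in the early growth libraries. Of 30 genes of fatty acid synthesis and handling 19 fell and 3 rose (median −1.30). FABP5, the fatty acid binding protein of epidermis, had 46.7 and 52.5 TPM in the resting libraries, against 592 and 922 TPM in the early growth libraries, and the elongases ELOVL6 (13.3 and 16.1 TPM in resting, against 88.6 and 95.8 TPM in early growth) and ELOVL4 (2.03 and 1.39 TPM in resting, against 16.9 and 24 TPM in early growth) fell with it. FABP4, the form known from fat cells, macrophages and capillaries, had 50.9 and 57.4 TPM at rest and 7.59 and 0 TPM in early growth and so went the other way, although no gene of the list was called higher when either resting library was left out.

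Energy metabolism was lower for most genes, by smaller steps. Of 41 subunits of the respiratory chain 30 fell and none rose (median −0.64), a count that became 16 lower and 3 higher after median-of-ratios scaling and 22 lower and 3 higher after quantile normalization. ATP5G3, a subunit of the ATP synthase ring, had 189 and 204 TPM in the resting libraries, against 771 and 780.3 TPM in the early growth libraries. UQCRC1, of complex III, had 144 and 149 TPM in the resting libraries, against 375 and 381 TPM in the early growth libraries. In glycolysis 14 of 24 genes fell and 3 rose (median −0.63), and 5 rose after median-of-ratios or quantile scaling or without early growth replicate 1. PGK1, a glycolytic kinase, had 259 and 271 TPM in the resting libraries, against 895 and 849.9 TPM in the early growth libraries. The lactate transporter SLC16A1 had 66 and 69.3 TPM in the resting libraries, against 282 and 274 TPM in the early growth libraries. PDK4, a kinase that inhibits pyruvate dehydrogenase, was higher at rest, with 11.6 and 17.1 TPM in the resting libraries, against 0.475 and 0 TPM in the early growth libraries. So was the aldolase isoform ALDOC, with 1536 and 1551 TPM in the resting libraries, against 580.4 and 549.6 TPM in the early growth libraries. Among 29 genes of lysosomes and autophagy 6 rose and 10 fell. The autophagy receptor SQSTM1 had 332 and 329 TPM in the resting libraries, against 79.3 and 89.9 TPM in the early growth libraries. That balance turned to 13 higher and 4 lower after median-of-ratios scaling, and 4 or 5 genes of the list were called lower without resting replicate 1 or 2.

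**Figure D3:**
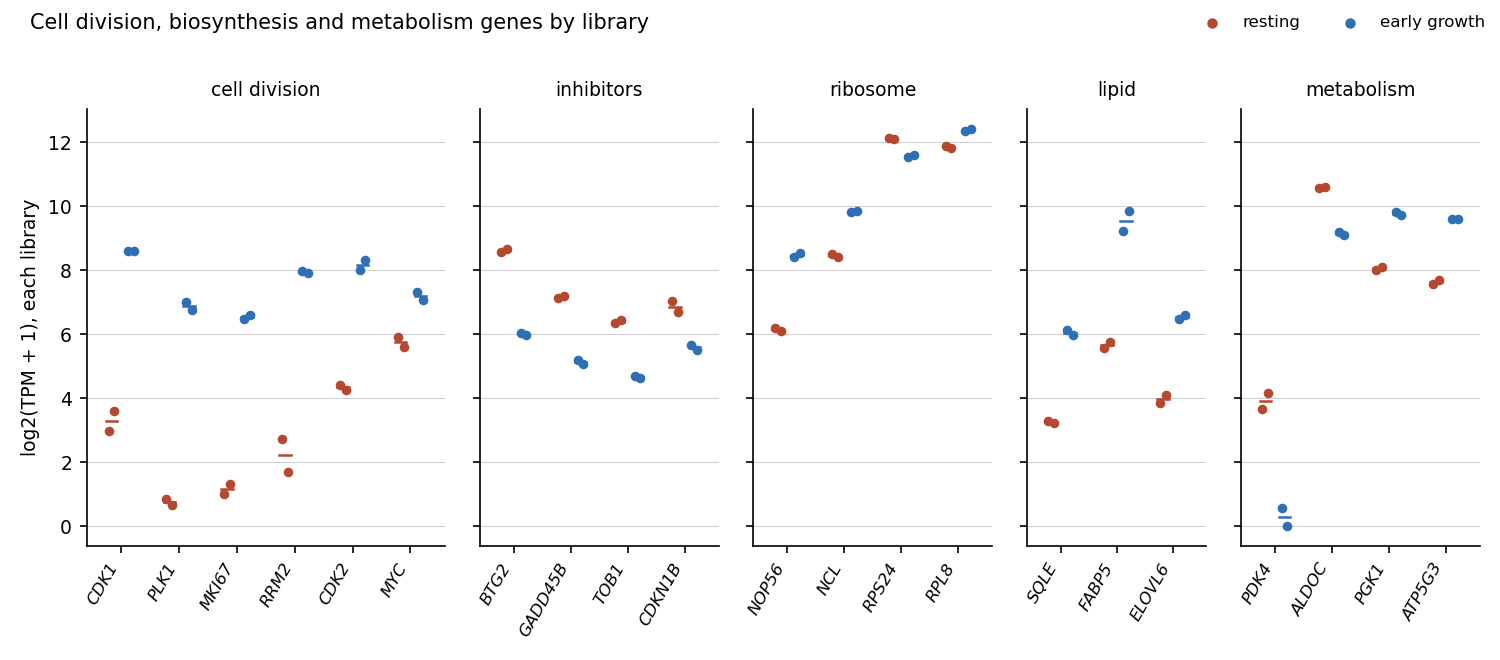
Level of single genes in each library as log2(TPM + 1) on the vertical axis, with resting (red) left of early growth (blue), 2 points per phase and a short line at their mean. The 6 cell division genes were lower in both resting libraries and the 4 cell cycle inhibitors higher, while the ribosomal protein genes RPS24 and RPL8 differed little and in opposite directions.

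Keratinocyte markers were present in both phases, and most of them differed in level. Of 26 tested basal keratinocyte markers 18 fell and 4 rose (median −0.79). KRT5, the basal keratin, had 2959 and 3032 TPM in the resting libraries, against 4832 and 5387 TPM in the early growth libraries. Its partner KRT14 had 2336 and 2290.3 TPM in the resting libraries, against 4173 and 4470.1 TPM in the early growth libraries. The tight junction gene CLDN1 differed much more, with 24.8 and 27.1 TPM in the resting libraries, against 473 and 418 TPM in the early growth libraries (log2 fold change −4.05 ± 0.10). The cadherins CDH1 (76 and 87.8 TPM in resting, against 267 and 278 TPM in early growth) and CDH3 (83.4 and 77.8 TPM in resting, against 379 and 362 TPM in early growth), which join epithelial cells, and the laminin receptor subunit ITGA3 (78.8 and 78.5 TPM in resting, against 301 and 280.2 TPM in early growth) also fell. The master regulator TP63 was nearly as high at rest, with 216 and 216 TPM in the resting libraries, against 273 and 267 TPM in the early growth libraries, and its fall was not called, with a log2 fold change of 0.02 and 0.03, after median-of-ratios scaling and quantile normalization. Against this trend, KRT15, a keratin known from resting hair follicle stem cells in mice, had 1577 and 1574 TPM in the resting libraries, against 455 and 518 TPM in the early growth libraries. COL17A1, the hemidesmosome collagen, had 1408 and 1471 TPM in the resting libraries, against 471 and 481 TPM in the early growth libraries. DST, which links keratin to hemidesmosomes, rose too, with 226 and 247 TPM in the resting libraries, against 120.1 and 106 TPM in the early growth libraries. None of these levels overlapped between the phases, which held for all 6500 called genes and for 9702 of the 13063 tested.

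Differentiation genes were divided: 9 of 32 tested rose and 11 fell (median 0.06), and 11 of 32 is about the share that fell among all genes. KRT75L2, a keratin of the KRT75 type, had 19.2 and 23 TPM in the resting libraries, against 258 and 669 TPM in the early growth libraries. EDPE, of the epidermal differentiation complex, had 1.8 and 0.546 TPM in the resting libraries, against 18 and 25 TPM in the early growth libraries. The lipid transporter ABCA12, needed for the skin barrier, had 9.45 and 12.1 TPM in the resting libraries, against 62.2 and 53.9 TPM in the early growth libraries. The epithelial factor EHF had 4.8 and 3.32 TPM in the resting libraries, against 39.4 and 49.8 TPM in the early growth libraries. In contrast, the desmosomal linkers PPL (212 and 207 TPM in resting, against 68.4 and 72.6 TPM in early growth) and EVPL (58 and 61.4 TPM in resting, against 28.8 and 27 TPM in early growth) and the suprabasal keratin KRT10 (69.5 and 74.2 TPM in resting, against 14.9 and 26.1 TPM in early growth) were higher at rest. KRT75 had 9.24 and 11.4 TPM in resting and was listed at 0 in early growth. The desmosomal genes JUP, at 385 and 404 TPM at rest and 370.0 and 383 TPM in early growth, and PKP1, at 259.9 and 274 TPM at rest and 256 and 254 TPM in early growth, were not called. The keratin genes lie in families of close copies, and how the counting split their shared reads is not known, so values of single copies are uncertain.

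Genes known from follicle stem cells of feathers or hair were sorted into opposite sides. Of 21 tested 7 rose and 10 fell (median −0.88). The rises include PRRX1, which is given below as a mesenchymal factor. FOXC1, a transcription factor of hair follicle stem cells in mice, had 1.81 and 3.56 TPM in the resting libraries, against 74.4 and 89.5 TPM in the early growth libraries. TBX1 had 60.4 and 59.7 TPM in the resting libraries, against 354 and 405 TPM in the early growth libraries. LGR5 and LGR6, R-spondin receptors that mark stem cells in mice, were both lower, LGR5 with 8.82 and 11.7 TPM at rest and 78.1 and 64.4 TPM in early growth and LGR6 with 35.3 and 37.9 TPM at rest and 160.0 and 159.9 TPM in early growth. SOX9 was lower as well, with 28.7 and 22.8 TPM in the resting libraries, against 87.3 and 88.8 TPM in the early growth libraries. On the other side stood KRT15 and COL17A1, given above, with RUNX1 (26.8 and 32.9 TPM in resting, against 9.27 and 7.25 TPM in early growth), FOXP1 (82.1 and 73.5 TPM in resting, against 38.3 and 26 TPM in early growth) and NFATC1 (35.5 and 34.3 TPM in resting, against 20.1 and 17.6 TPM in early growth), like FOXC1 a transcription factor of hair follicle stem cells in mice.

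FGF signals, which feed both dermal papilla and epidermis, held 5 genes that rose and 5 that fell among 26 tested (median −0.18, 0.15 after median-of-ratios scaling and 0.14 after quantile normalization). FGF18, a ligand associated with the hair resting phase in mice, had 48.8 and 45.9 TPM in the resting libraries, against 4.18 and 0 TPM in the early growth libraries, a log2 fold change of 4.41 ± 0.73 (adjusted p 0.0038). FGFR3, a receptor that FGF18 binds, had 45.5 and 49 TPM in the resting libraries, against 6.88 and 6.66 TPM in the early growth libraries. FGF2 had 9.28 and 9.17 TPM in the resting libraries, against 0.416 and 0 TPM in the early growth libraries. Opposite to these, FGFBP1, a carrier that releases FGFs from matrix, had 74 and 77.3 TPM in the resting libraries, against 752 and 690.0 TPM in the early growth libraries, a log2 fold change of −3.23 ± 0.07 (adjusted p 5.2e-06). The ERK-responsive factor ETV4 had 10.3 and 11.2 TPM in the resting libraries, against 62.9 and 64.1 TPM in the early growth libraries. The feedback inhibitor SPRY1 had 67.2 and 66 TPM in the resting libraries, against 244 and 289.9 TPM in the early growth libraries. Thus FGF18, FGF2 and FGFR3 were higher at rest, and FGFBP1, ETV4 and SPRY1 lower. Of other pathway inhibitors, SPRED2 was higher (67.7 and 65.8 TPM in resting, against 38.7 and 39 TPM in early growth). SPRY2 was lower (34.7 and 35.4 TPM in resting, against 60.5 and 55.5 TPM in early growth). The ligand FGF7 was not called, with 17.6 and 16.5 TPM at rest and 17.3 and 28.9 TPM in early growth. The response genes DUSP6, at 19.3 and 22.9 TPM at rest and 24.2 and 26.5 TPM in early growth, and ETV5, at 39.2 and 36.3 TPM at rest and 65.7 and 27.9 TPM in early growth, were not called. The receptors FGFR1, at 81.9 and 84.1 TPM at rest and 101 and 89 TPM in early growth, and FGFR2, at 183 and 191 TPM at rest and 168 and 128.7 TPM in early growth, were not called. FGF9 (4.82 and 0 TPM in resting, against 17.7 and 5.9 TPM in early growth), FGF10 (4.12 and 2.61 TPM in resting, against 3.41 and 1.44 TPM in early growth) and SRC (14.3 and 11.2 TPM in resting, against 27.3 and 13.8 TPM in early growth) were not called either. FGF1, FGF6 and FGF23 had at most 1.14 TPM in any library and were not tested. The number of FGF genes called lower was 9 without early growth replicate 2, and the number called higher was 8 without early growth replicate 1.

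Insulin-like growth factor genes leaned to the resting side, with 11 of 20 higher and 6 lower (median 0.49). STC1, a secreted glycoprotein that inhibits the protease PAPPA, had 53.1 and 45.8 TPM in the resting libraries, against 3.56 and 0.808 TPM in the early growth libraries. PAPPA, which frees IGF from binding proteins, had 1.33 and 0.901 TPM in the resting libraries, against 4.41 and 3.78 TPM in the early growth libraries, a fall not called without resting replicate 2. The insulin receptor substrate IRS2 had 11.3 and 8.24 TPM in the resting libraries, against 1.51 and 0.450 TPM in the early growth libraries. The receptor IGF1R had 36.3 and 33.9 TPM in the resting libraries, against 18.9 and 22.7 TPM in the early growth libraries. Binding proteins did not move together. IGFBP5 had 11.3 and 12.2 TPM in the resting libraries, against 31.7 and 44.6 TPM in the early growth libraries. IGFBP3 had 14.1 and 12.1 TPM in the resting libraries, against 29.2 and 38 TPM in the early growth libraries, whereas IGFBP4 had 215 and 192 TPM in the resting libraries, against 89.5 and 84.7 TPM in the early growth libraries. IGF2 itself was not called, with 16.6 and 14 TPM at rest and 21.3 and 31.6 TPM in early growth. The call of IGF1R was lost without either resting library. Without resting replicate 1 or 2 only 6 or 7 genes of the list were called higher, and after median-of-ratios scaling or quantile normalization only 3 were called lower.

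BMP and TGF-beta genes divided 11 higher to 10 lower of 39 (median 0.08), with 6 lower after median-of-ratios scaling. BMP3, an atypical ligand that opposes BMP signaling, had 49 and 41.7 TPM in the resting libraries, against 0.578 and 0 TPM in the early growth libraries, a log2 fold change of 5.20 ± 0.32 (adjusted p 0.00011). INHBA, the activin A subunit, had 32.6 and 28.3 TPM in the resting libraries, against 3.82 and 0.713 TPM in the early growth libraries. FSTL3, an activin antagonist, had 15 and 16.1 TPM in the resting libraries, against 1.58 and 0 TPM in the early growth libraries. ID1, a direct BMP target, had 93.9 and 71.1 TPM in the resting libraries, against 361 and 430.5 TPM in the early growth libraries. The BMP ligand BMP2 had 18.4 and 14.6 TPM in the resting libraries, against 45 and 40.8 TPM in the early growth libraries. The antagonists GREM1 (2.71 and 2.47 TPM in resting, against 11.1 and 18.1 TPM in early growth) and NOG (4.63 and 1.5 TPM in resting, against 10.1 and 12.8 TPM in early growth) fell, although NOG was not called after median-of-ratios scaling, with array weights or without 3 of the 4 libraries in turn. BMP4 (71.6 and 72.7 TPM in resting, against 46.8 and 29.9 TPM in early growth) was higher, a call lost without either resting library, and BMP7, with 77.1 and 78.1 TPM at rest and 84.6 and 76.5 TPM in early growth, and the receptor BMPR1A, with 29.1 and 21.9 TPM at rest and 32.1 and 25.4 TPM in early growth, were not called. Both agonists and antagonists therefore stood on either side.

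In the WNT pathway, 5 of 9 frizzled receptors were lower at rest and 2 were higher. Of 38 tested genes 10 rose and 17 fell (median −0.18, 0.13 after median-of-ratios scaling and 0.02 after quantile normalization). FZD8, a WNT receptor, had 21.9 and 23.7 TPM in the resting libraries, against 352 and 358 TPM in the early growth libraries, a log2 fold change of −3.90 ± 0.08 (adjusted p 5.2e-06). The co-receptor LRP5 had 15.8 and 18.1 TPM in the resting libraries, against 41 and 46.7 TPM in the early growth libraries. FZD10, another frizzled, had the opposite direction, with 13.2 and 13.1 TPM in the resting libraries, against 3.48 and 2.85 TPM in the early growth libraries. CTNNB1, encoding beta-catenin, fell by a smaller step, with 478 and 501 TPM in the resting libraries, against 750.3 and 679 TPM in the early growth libraries, and its call was lost after median-of-ratios scaling (log2 fold change −0.21, adjusted p 0.062). TCF7, a transcription factor that binds beta-catenin, had 47.3 and 85.3 TPM in the resting libraries, against 12.4 and 9.71 TPM in the early growth libraries. AXIN2, a common feedback target, had 26.2 and 26.9 TPM in the resting libraries, against 9.79 and 11.1 TPM in the early growth libraries. The ligands WNT7B, at 5.85 and 8.27 TPM in resting and listed at 0 in early growth, WNT6 (19.2 and 17.8 TPM in resting, against 5.33 and 1.72 TPM in early growth) and WNT3A (9.2 and 5.71 TPM in resting, against 1.11 and 1.24 TPM in early growth) were higher, and WNT5B (1.52 and 2.2 TPM in resting, against 12.5 and 5.91 TPM in early growth) and WNT7A (3.4 and 4.46 TPM in resting, against 12.5 and 16.5 TPM in early growth) lower, and the calls of WNT6 and WNT5B were lost without either resting library. Secreted or membrane antagonists rose in 6 of 13 cases and fell in 3. The fall of DKK1, with 0 and 1.55 TPM at rest and 4.34 and 3.09 TPM in early growth, was lost under most alternatives. These included both other pseudocounts, median-of-ratios scaling and the robust fit. WIF1, which captures WNT ligands, had 42.2 and 51.6 TPM in the resting libraries, against 12.3 and 5.97 TPM in the early growth libraries. APCDD1 had 75.5 and 71.3 TPM in the resting libraries, against 23.4 and 27 TPM in the early growth libraries, whereas SFRP1 had 28.2 and 29 TPM in the resting libraries, against 122 and 116 TPM in the early growth libraries.

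NOTCH genes were lower in 10 of 20 cases and higher in 2 (median −0.38). Under each of the 3 other scalings 8 were lower and 3 higher. The median was then −0.06 after median-of-ratios scaling, −0.15 after quantile normalization and −0.21 after rescaling. NOTCH1 had 28 and 28.2 TPM in the resting libraries, against 65.1 and 65.9 TPM in the early growth libraries. Its ligand JAG2 had 124 and 125 TPM in the resting libraries, against 291 and 283 TPM in the early growth libraries. DLL1 had 19.1 and 22.3 TPM in the resting libraries, against 37.3 and 35.6 TPM in the early growth libraries. Of their target genes, HES4 fell, with 51.8 and 53.7 TPM in the resting libraries, against 204 and 205 TPM in the early growth libraries, and HES1 rose, with 39.9 and 35.8 TPM in the resting libraries, against 13.2 and 11.9 TPM in the early growth libraries. Among 19 genes of the Hippo pathway 6 rose and 3 fell, and 11 rose after median-of-ratios or quantile scaling. The effector YAP1 was not called, with 110.5 and 112 TPM at rest and 103 and 99.3 TPM in early growth, while CYR61, a YAP target that is also an immediate early gene, had 228 and 220.0 TPM in the resting libraries, against 29.7 and 33.7 TPM in the early growth libraries. The cofactor VGLL3 had 28.8 and 25.3 TPM in the resting libraries, against 3.18 and 1.44 TPM in the early growth libraries.

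SHH, the hedgehog ligand of the feather barb ridges, had 19.6 and 25.1 TPM in the resting libraries and was listed at 0 in both early growth libraries. Besides SHH only GLI2 and SCUBE2 rose among the 14 tested genes of the pathway, and 5 fell, while 2 were called lower after median-of-ratios or quantile scaling and 3 after rescaling or without resting replicate 1. The call of GLI2 was lost without either resting library. GAS1, a co-receptor, had 26.6 and 29.7 TPM in the resting libraries, against 159 and 179 TPM in the early growth libraries, and the target GLI1 was not called, with 28.5 and 29.2 TPM at rest and 22.3 and 23.1 TPM in early growth. In the EGF family 5 of 12 rose and 2 fell. EGFR had 122 and 119 TPM in the resting libraries, against 70.2 and 46.7 TPM in the early growth libraries, while its relatives ERBB2 (24 and 21.1 TPM in resting, against 57.6 and 58.1 TPM in early growth) and ERBB3 (13.6 and 14.4 TPM in resting, against 42.1 and 50.3 TPM in early growth) fell. Without resting replicate 1 or 2, 2 genes of this list were called higher, and EGFR was not, while 8 were higher without early growth replicate 1.

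**Figure D4:**
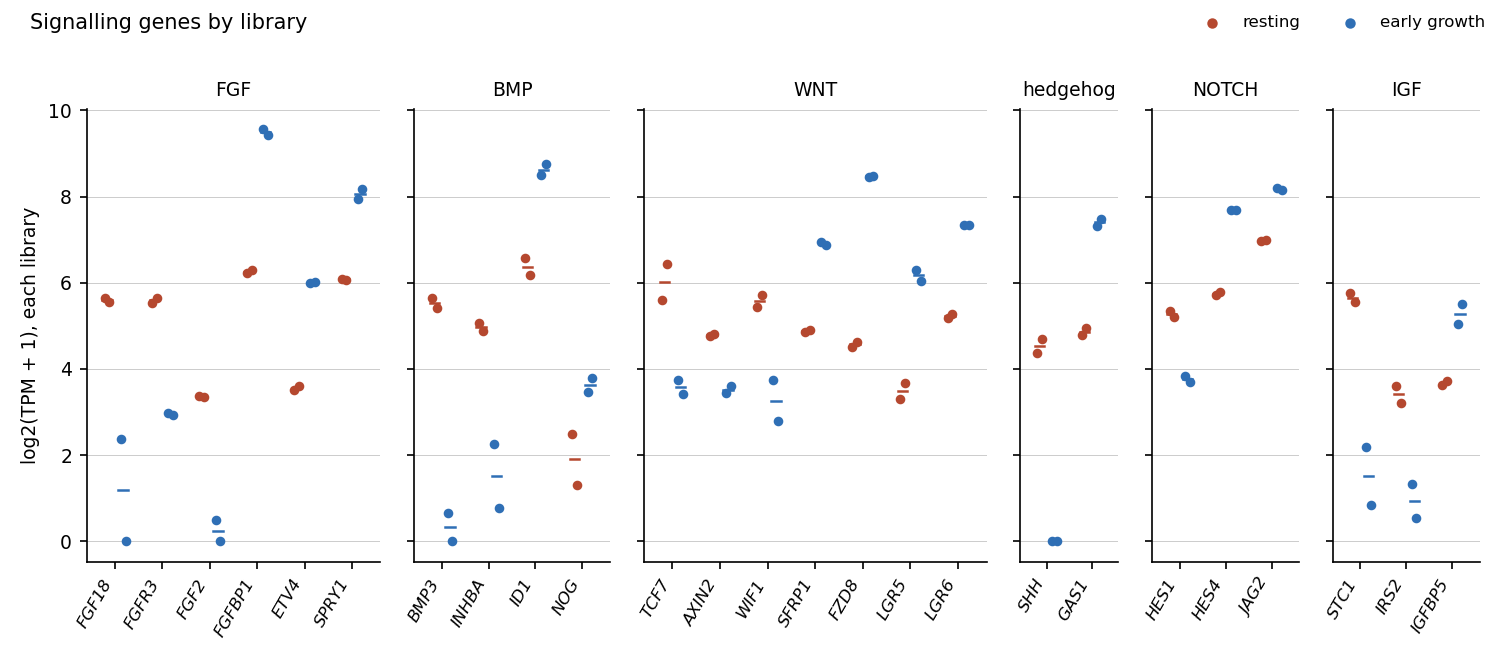
Level of 25 signalling genes in each library as log2(TPM + 1) on the vertical axis, with resting (red) left of early growth (blue), 2 points per phase and a short line at their mean. In most pathways genes on the 2 sides faced each other: FGF18, BMP3, TCF7 and SHH were higher in both resting libraries, and FGFBP1, ID1, FZD8 and GAS1 were lower.

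Dermal transcripts were present in both phases, and their makeup differed. Smooth muscle stood out: 25 of 28 tested markers rose and none fell, with a median of 4.05 (1 fell without early growth replicate 1). MYH11, the smooth muscle myosin, had 4845 and 4953 TPM in the resting libraries, against 229 and 126 TPM in the early growth libraries. ACTG2, the enteric smooth muscle actin, had 5138 and 5399 TPM in the resting libraries, against 158 and 101 TPM in the early growth libraries. MYOCD, the master regulator of this cell type, had 88.8 and 97 TPM in the resting libraries, against 4.17 and 5.0 TPM in the early growth libraries. The list summed to 6.32 and 6.51% of TPM in resting, against 0.509 and 0.422% in early growth, and to 0.151 and 0.163% in late growth. ACTA2, the vascular smooth muscle actin, did not follow, with 297 and 270.0 TPM in the resting libraries, against 462 and 347 TPM in the early growth libraries, and the pericyte gene RGS5 differed less, with 179.6 and 185 TPM in the resting libraries, against 123 and 123 TPM in the early growth libraries, a rise not called without either resting library. Skeletal muscle was not detectable as such: 1 of its 14 listed markers passed the filter, DMD (90.9 and 95.8 TPM in resting, against 23 and 20.9 TPM in early growth), which smooth muscle also expresses. Feathers are moved by smooth muscles that attach to the follicle wall, and whether more of that tissue entered the resting dissections was not tested.

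Fibroblast and dermal papilla markers kept a similar summed level, 0.350 and 0.355% of TPM at rest and 0.295 and 0.285% in early growth, against 0.0399 and 0.0434% in late growth. Within the list 14 of 33 rose and 8 fell (median 0.45). POSTN, a matrix protein of remodelling dermis, had 225 and 275 TPM in the resting libraries, against 22.6 and 12.7 TPM in the early growth libraries. TNC, tenascin C, had 128.6 and 127 TPM in the resting libraries, against 14.4 and 9.08 TPM in the early growth libraries. The mesenchymal factors TWIST1 (68.9 and 66.2 TPM in resting, against 7.87 and 5.26 TPM in early growth) and PRRX1 (224 and 238 TPM in resting, against 52.4 and 59.6 TPM in early growth) and the fibroblast antigen THY1 (388 and 371 TPM in resting, against 60.5 and 49.2 TPM in early growth) rose as well. Fibrillar collagen did not: COL1A2 had 195 and 185 TPM in the resting libraries, against 385 and 386 TPM in the early growth libraries. COL1A1 had 116 and 109 TPM in the resting libraries, against 164 and 194 TPM in the early growth libraries, and COL3A1 was not called, with 226 and 244 TPM at rest and 251 and 241 TPM in early growth. COL14A1, a fibril-associated collagen, fell most, with 7.53 and 8.21 TPM in the resting libraries, against 100.3 and 91.7 TPM in the early growth libraries. DCN, the most abundant gene of the list, had 516 and 544 TPM at rest and 589.9 and 617 TPM in early growth and was not called. After median-of-ratios or quantile scaling 3 genes of the list were called lower, and 4 or 5 without resting replicate 1 or 2, COL1A1 being lost in each case.

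Endothelial markers were lower where they differed. Of 21 tested 11 fell and none rose (median −1.24), and the list summed to 0.0329 and 0.0310% of TPM in resting and 0.0939 and 0.0950% in early growth. PLVAP, of fenestrated capillaries, had 25.6 and 20.2 TPM in the resting libraries, against 93.6 and 121 TPM in the early growth libraries. ENG, a marker of active endothelium, had 14.1 and 17.1 TPM in the resting libraries, against 63.4 and 62.2 TPM in the early growth libraries. CDH5, the endothelial cadherin, had 10.1 and 15.5 TPM in the resting libraries, against 42.5 and 37.4 TPM in the early growth libraries. VWF (26.2 and 25.9 TPM in resting, against 32.6 and 28.1 TPM in early growth), TEK (25.6 and 25.3 TPM in resting, against 24.6 and 27.8 TPM in early growth) and CD34 (20.2 and 15.9 TPM in resting, against 19.5 and 17.9 TPM in early growth) were not called, so the defining markers were not all lower. SOX7 had the largest fall of the list, with 19.5 and 26.6 TPM in the resting libraries, against 319.8 and 325 TPM in the early growth libraries, but late growth libraries, in which CDH5 was at 2.91 and 3.07 TPM, still had 250.2 and 248 TPM of it. As the most abundant tested member in early growth, SOX7 also enlarges the difference between the summed levels.

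Globins were among the most abundant resting transcripts. The 7 globin genes took 5.57 and 5.60% of TPM in resting, against 0.134 and 0.148% in early growth. HBA1, the major alpha globin, had 10650.0 and 10445 TPM in the resting libraries, against 687 and 769 TPM in the early growth libraries. The genes known as embryonic globins, HBBR (20026 and 20068 TPM in resting, against 0 and 7.09 TPM in early growth), HBE (10022 and 10600.0 TPM in resting, against 1.5 and 0 TPM in early growth) and HBZ (8150.5 and 7986 TPM in resting, against 0 and 0 TPM in early growth), were at or near 0 in early growth. HBBA, the adult beta globin, was in contrast lower at rest, with 290.4 and 248 TPM in the resting libraries, against 522 and 556 TPM in the early growth libraries. Globin genes form families of related copies, and how the counting split any shared reads is not known, so the levels of single genes are uncertain. Most other red cell genes were low: HEMGN had 17.2 and 14.8 TPM at rest and was listed at 0 in early growth, and SLC4A1, the band 3 anion exchanger, was not called, with 7.43 and 6.09 TPM at rest and 4.43 and 0.502 TPM in early growth. CA2 went against the globins that rose, with 14.4 and 13.5 TPM at rest and 87.3 and 128 TPM in early growth. It had 353 and 346 TPM in late growth. Of the 14 tested red cell markers 9 rose and 2 fell, HBBA and CA2.

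Leukocyte markers summed to 0.146 and 0.139% of TPM in resting and 0.139 and 0.131% in early growth, with 7 of 22 higher and 1 lower. The fall was CD44, the most abundant tested member in early growth, with 232 and 244 TPM at rest and 679 and 630 TPM in early growth. The similar sums therefore depend on CD44 and do not show that the other members were level. T cell genes were among the risers, with CD3E at 41.5 and 36.1 TPM at rest and 10.1 and 13.1 TPM in early growth, and CD8A at 6.24 and 4.8 TPM in resting and listed at 0 in early growth. The pan-leukocyte gene PTPRC was not called, with 5.62 and 6.99 TPM at rest and 2.96 and 4.75 TPM in early growth, nor was the macrophage receptor CSF1R, with 5.42 and 5.06 TPM at rest and 9.65 and 4.52 TPM in early growth. Without early growth replicate 1 there were 11 higher and 4 lower leukocyte genes, without early growth replicate 2 there were 8 and 2, and 4 were higher without resting replicate 1. Of 11 nerve and glial genes 7 rose and 2 fell, and with a filter at 5 TPM 2 rose and 2 fell. NCAM1, a neural and dermal adhesion molecule, had 48.8 and 47.5 TPM in the resting libraries, against 6.32 and 4.24 TPM in the early growth libraries. The glial factor SOX10 had 9.99 and 12.7 TPM in the resting libraries, against 1.8 and 1.17 TPM in the early growth libraries. The 2 falls were TUBB3, a neuronal tubulin, with 3.48 and 5.71 TPM at rest and 13.9 and 15.7 TPM in early growth, and the receptor ERBB3, given above. Of 15 listed melanocyte genes 5 passed the filter. GPNMB, which melanocytes share with macrophages and other cells, had 428 and 412 TPM in the resting libraries, against 10.8 and 10.3 TPM in the early growth libraries, a log2 fold change of 5.19 ± 0.11. Of 7 tested fat cell markers 2 rose and 4 fell (median −1.8). The rises were FABP4, given above, and the fat cell hormone ADIPOQ, with 833 and 840.4 TPM in the resting libraries, against 123 and 117 TPM in the early growth libraries. CIDEA, LPL, DGAT2 and PPARG fell. PPARG, the regulator of fat cells and sebaceous-type lipid synthesis, had 1.52 and 2.03 TPM in the resting libraries, against 18.8 and 21 TPM in the early growth libraries.

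**Figure D5:**
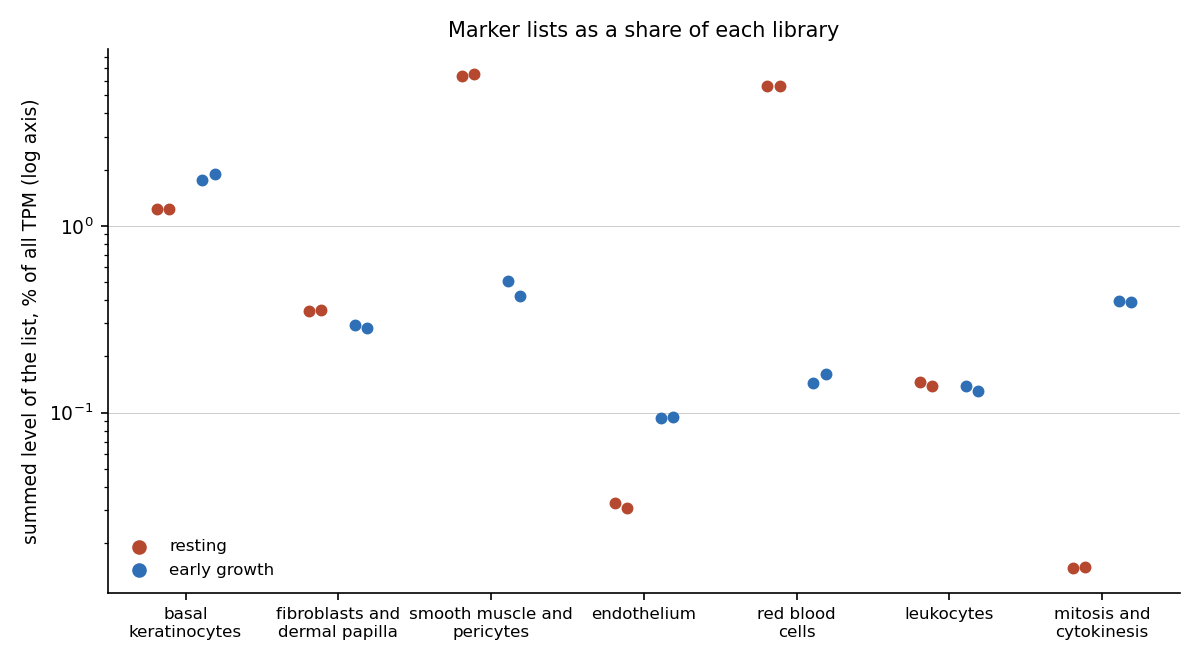
Summed level of 6 marker lists and of the mitosis list in each library, as percent of all TPM on a log axis, with resting (red) left of early growth (blue) and 1 point per library. Smooth muscle and red blood cell lists stood above 5% in both resting libraries and below 1% in both early growth libraries, fibroblast and leukocyte lists lay close together, and the mitosis list was lower at rest. The leukocyte sum includes the abundant CD44, which was lower at rest.

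Transcripts of basement membrane components did not share 1 direction, and which cells made them was not tested. Of 29 tested components 13 rose and 10 fell (median 0.16), with 6 falls after median-of-ratios scaling. The type IV collagen COL4A1 had 267 and 264 TPM in the resting libraries, against 113 and 102 TPM in the early growth libraries. The laminin chain LAMA4, known from vessels and muscle, had 85.5 and 85.9 TPM in the resting libraries, against 22.1 and 18 TPM in the early growth libraries. NID2 had 102 and 110.4 TPM in the resting libraries, against 22.7 and 22.8 TPM in the early growth libraries. Its paralog NID1 fell, with 31.4 and 36.2 TPM in the resting libraries, against 88.8 and 91.3 TPM in the early growth libraries. Other components fell: COL7A1, the anchoring fibril collagen, had 16 and 14.4 TPM in the resting libraries, against 115 and 113 TPM in the early growth libraries, and FREM2 and FRAS1, of the Fraser complex, fell as well, FREM2 with 1.03 and 0.866 TPM at rest and 23.1 and 20.6 TPM in early growth and FRAS1 with 9.02 and 7.48 TPM at rest and 32 and 25.3 TPM in early growth. Among 26 matrix proteases and inhibitors 7 rose and 7 fell, against 10 and 4 after median-of-ratios or quantile scaling and 4 and 6 with a filter at 5 TPM. PLAU, the urokinase that migrating keratinocytes use, had 3.58 and 2.18 TPM in the resting libraries, against 51.4 and 49.3 TPM in the early growth libraries. ADAM8 had 1.88 and 2.33 TPM in the resting libraries, against 30.9 and 26.3 TPM in the early growth libraries, while the inhibitor TIMP3 had 287 and 307 TPM in the resting libraries, against 122 and 145 TPM in the early growth libraries.

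Immediate early genes, which many stimuli induce within minutes, were higher at rest in 17 of 23 cases and lower in 3 (median 1.59). FOS, of the AP-1 factor, had 991 and 1020.3 TPM in the resting libraries, against 25.3 and 22.5 TPM in the early growth libraries, a log2 fold change of 5.34 ± 0.09 (adjusted p 3.4e-06). SOCS3, the feedback inhibitor of cytokine receptors, had 219 and 227 TPM in the resting libraries, against 4.71 and 6.82 TPM in the early growth libraries. The stress factor ATF3 had 230.0 and 255 TPM in the resting libraries, against 35.4 and 24.4 TPM in the early growth libraries. JUN followed, with 467 and 448 TPM in the resting libraries, against 94.5 and 73.8 TPM in the early growth libraries. EGR1 had 340.5 and 331 TPM in the resting libraries, against 60.4 and 68.8 TPM in the early growth libraries, and its level in the late growth libraries, 348 and 354 TPM, was as high as in resting. Heat shock genes were divided, with 9 of 26 higher and 13 lower. The small heat shock genes HSPB7 (522 and 498 TPM in resting, against 14.1 and 13.8 TPM in early growth) and HSPB1 (1358 and 1327 TPM in resting, against 221 and 191 TPM in early growth) rose, and the chaperones HSP90AB1 (19.6 and 14.2 TPM in resting, against 89.2 and 86.1 TPM in early growth) and HSPD1 (128 and 143 TPM in resting, against 484 and 442 TPM in early growth) fell.

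Interferon response genes rose in 10 of 20 cases and fell in none (median 0.71). IRF1 had 80.2 and 67.6 TPM in the resting libraries, against 15.1 and 11.5 TPM in the early growth libraries. The peptide transporter TAP1 had 46.6 and 40.8 TPM in the resting libraries, against 15.4 and 12.4 TPM in the early growth libraries. B2M, the light chain of MHC class I, had 1692 and 1696 TPM in the resting libraries, against 739.7 and 761 TPM in the early growth libraries. The rises called were 6 without resting replicate 1 and 5 without resting replicate 2, and 1 gene was called lower without early growth replicate 2. Of 22 clock genes 11 rose and 4 fell (median 0.36), with 2 falls after each of the other scalings and 1 without either resting library. RORA had 15.2 and 19.5 TPM in the resting libraries, against 1.86 and 0.811 TPM in the early growth libraries. BHLHE40 had 43.7 and 48.6 TPM in the resting libraries, against 14.2 and 18.2 TPM in the early growth libraries, while CIART had 0.611 and 1.16 TPM in the resting libraries, against 8.06 and 6.13 TPM in the early growth libraries. PER3 had 5.61 and 4.28 TPM in the resting libraries, against 33.7 and 13.1 TPM in the early growth libraries. The call of PER3 was lost without either resting library, and no hour of sampling is stated.

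Genes often used as internal references differed between the phases in 20 of 25 cases, 6 higher and 14 lower, with 8 lower after median-of-ratios scaling, 9 lower without either resting library and 3 higher after quantile normalization. GAPDH had 2559.7 and 2598 TPM in the resting libraries, against 4112 and 4230.5 TPM in the early growth libraries. PPIA, cyclophilin A, had 1828 and 1892 TPM in the resting libraries, against 5396 and 5512 TPM in the early growth libraries. ACTB had 5542 and 5757 TPM in the resting libraries, against 4264 and 4505 TPM in the early growth libraries, a rise that was gone after quantile normalization (log2 fold change 0.00). The gene of the list nearest to 0 was RPLP0, with 2678 and 2690.2 TPM at rest and 2754 and 2751 TPM in early growth and a log2 fold change of −0.04 ± 0.06 that was not called.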

How the data were processed

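RNA of papilla ectoderm was sequenced by the authors as 2 libraries per phase for 3 phases, and phases were taken from the sample labels. The deposited table gives transcript abundance per gene scaled to a common library total (TPM), which the authors obtained with StringTie on the chicken genome GRCg6a per the submitters' processing notes. For the aligner, nothing was given in the sources used here. An Ensembl annotation is named although the identifiers are gene symbols. The library kit does not mark strand, so overlapping and antisense genes cannot be told apart, and genes with near-identical copies are uncertain. TPM keeps no depth, so total reads and counting error per library are unknown and precision rests on 2 libraries per phase. The authors tested read counts, which were not used here.

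Genes with a mean above 1 TPM were kept (13063 of 23724) and log2(TPM + 1) was fitted with limma 3.58.1 in R 4.3.3, as a mean per phase over all 6 libraries with a mean-variance trend (3 residual and 3.01 prior degrees of freedom). P values for resting minus early growth were adjusted over all tested genes (Benjamini-Hochberg). Genes were called at an adjusted p under 0.05, and those with a log2 fold change beyond 1 as well were named DEGs. An exact test of 2 against 2 libraries cannot go below 0.333, so none was used. The code was tested on simulated data. Alternatives covered the pseudocount, the filter, 3 other scalings, other fits and leaving out each library. The rescaling left out 43 genes.

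The 42 gene lists held 1175 genes, of which 989 were tested, 8 of them being matched through a RefSeq gene table. Members and lists were chosen with earlier results of these data known. Named genes were the 10 largest rises and falls among genes with a symbol and no resting or early growth library at 0, the 3 most abundant genes listed at 0 in each phase, genes the study names for these libraries, up to 4 called genes per list and direction, and the 3 most abundant of each marker list. A further 52 genes were named after their values were seen, among them CDKN1B, PCNA, TP63, CDH1, SOX9, NFATC1, AXIN2, FZD10, EGFR, BMP4, MYH11, MYOCD, ACTA2, COL1A1, CDH5, EGR1 and most genes given as not called. Tested identifiers include 16 spreadsheet dates, which name no gene here, and a few items are not reported here.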

Additional observations from a re-analysis of the deposited data

How the results depend on the processing

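The phases kept the same balance, more genes lower than higher at rest, with pseudocounts of 0.1 and 0.5, no filter or a filter at 5 TPM, a robust fit, array weights, a fit of the 4 libraries alone and TPM rescaled without red blood cell and smooth muscle genes. After median-of-ratios scaling 3175 genes were higher and 2936 lower at rest, with 2039 DEGs higher and 1547 lower. After quantile normalization 3026 genes were higher and 3395 lower, with 1949 DEGs higher and 1847 lower. The balance of DEGs thus turned to the higher side under both of these scalings. Thresholds of a log2 fold change beyond 2 and an adjusted p under 0.01 left 538 DEGs higher and 689 lower. With each library left out in turn, 1259 to 3049 genes were higher, 3178 to 4642 lower, 1053 to 2177 DEGs higher and 2158 to 2710 DEGs lower. Without early growth replicate 1 there were 2177 DEGs higher, and without resting replicate 1 or 2 there were 1308 or 1259 genes higher; the phase left with a single library was then assumed to vary like the others. Of 314 called genes that the rule or the text names, 258 stayed called in the same direction under every alternative that tested them, and 3 changed sign under a scaling: EEF1A1 (−0.58) and ACTB (0.00) after quantile normalization, and TP63 after median-of-ratios scaling (0.02) and quantile normalization (0.03).

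Replicate numbers did not pair the libraries: deviations of same-numbered libraries correlated at −0.0289 between early and late growth, 0.0083 between resting and early growth and 0.0149 between resting and late growth. With a replicate block 1885 genes were higher and 4134 lower (1398 and 2433 DEGs), and 7 of the named calls were lost. Depth is unknown from TPM, and a value listed at 0 gives no upper limit.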
